A study of Mus musculus with 150 samples.

Results

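En1, En2, Irx3, Shox2 and Gata3, developmental transcription factors of the midbrain and hindbrain, were followed through adult mouse tissues. The genes were chosen by name, with earlier results of these data known. Every probe set annotated to 1 of them was taken, which gave 6 probe sets for 5 genes. The arrays represent 8251 genes. En1, En2, Irx3 and Gata3 had 1 probe set each, and Shox2 had a pair. Total RNA of wild-type inbred mice had been hybridized to 150 one-colour arrays, of which 148 were used. Strain 129 supplied 43 of the neural arrays, B6 (also written BL6) 47 and DBA 8. Each of 10 body tissues had 1 array of each of 129, B6, DBA, AJ and C3H. All groups are unmanipulated mice, and the titles carry animal numbers, which name 1 animal for some arrays and a pool of several for others. Several tissues came from the same animals. Age and sex were not used here.

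The column labelled hippocampus of 129 replicate 1 and the column labelled perirhinal cortex of DBA replicate 2 were identical for all 12488 probe sets, and both were left out. The 75th percentile of an array's values lay between 166.6 and 184.8, and between 14.1% and 25.9% of an array's values lay at or below the floor of 10.44 that was set before taking logarithms. Lists of markers of cerebellum, choroid plexus, pituitary, spinal cord (Hox and myelin genes), thymus and kidney were each highest in the tissue of that label. The tissue labelled midbrain with thalamus carried the thalamic list at a summed intensity of 2019 to 2333. The tissue labelled bed nucleus of the stria terminalis carried it at 1546 to 2045, and the values that bear on this are given with Shox2. Since tissues were measured in bulk, fewer cells of a type and less RNA per cell cannot be told apart.

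En1 and En2 are homeodomain repressors of the engrailed family. In the embryo they are expressed on either side of the isthmus, the signalling centre at the border of midbrain and hindbrain, and they are required to form the midbrain and cerebellum and to maintain dopaminergic neurons of the midbrain. Irx3 belongs to the Iroquois homeodomain family, which subdivides the neural plate and the ventral spinal cord and also acts in heart and kidney. Shox2 is a short stature homeobox factor known for the sinoatrial node, the limb skeleton and neuron subtypes of the brainstem and cord. Gata3 is a zinc finger factor that directs T cell development and, with Gata2 and Tal1, the fate of GABAergic neurons in the midbrain, hindbrain and cord.

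In RefSeq annotation of GRCm38.p6, En1 (probe set 96523_at) lies at chr1:120602487-120607991, En2 (98338_at) at chr5:28165696-28172190, Irx3 (99034_at) at chr8:91798511-91801654, Shox2 (99042_s_at and 99043_s_at) at chr3:66971723-66981771 and Gata3 (100924_at) at chr2:9857078-9887953. A promoter entry was found for 4 of the 5 genes. The 250 bases before the annotated start are shown for En1, Shox2 and Gata3, which had the largest differences between midbrain and telencephalon, and for Tal1, whose profile over tissues was nearest to that of Gata3. The En1 window is chr1:120602237-120602486 on the plus strand, the Shox2 window chr3:66981772-66982021 on the minus strand, the Gata3 window chr2:9878601-9878850 on the minus strand, inside the annotated span of the gene, and the first of a pair of Tal1 windows chr4:115056176-115056425 on the plus strand. All sequences are RefSeq's, written 5′ to 3′, with motif matches in capitals.
En1: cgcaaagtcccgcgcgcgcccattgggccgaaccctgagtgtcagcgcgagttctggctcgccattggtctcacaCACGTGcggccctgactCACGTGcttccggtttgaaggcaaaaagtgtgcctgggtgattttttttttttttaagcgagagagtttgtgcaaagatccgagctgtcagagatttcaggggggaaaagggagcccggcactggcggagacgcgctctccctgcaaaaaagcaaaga
Shox2: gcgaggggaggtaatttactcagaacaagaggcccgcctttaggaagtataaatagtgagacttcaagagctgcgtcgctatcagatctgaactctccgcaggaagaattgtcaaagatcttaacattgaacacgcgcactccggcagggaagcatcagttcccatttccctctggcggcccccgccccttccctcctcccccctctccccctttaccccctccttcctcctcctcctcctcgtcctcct
Gata3: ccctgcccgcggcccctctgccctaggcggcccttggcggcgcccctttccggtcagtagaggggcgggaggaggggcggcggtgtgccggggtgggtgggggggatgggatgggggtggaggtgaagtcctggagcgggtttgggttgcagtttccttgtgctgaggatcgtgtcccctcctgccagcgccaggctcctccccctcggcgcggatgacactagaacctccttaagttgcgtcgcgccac
Tal1: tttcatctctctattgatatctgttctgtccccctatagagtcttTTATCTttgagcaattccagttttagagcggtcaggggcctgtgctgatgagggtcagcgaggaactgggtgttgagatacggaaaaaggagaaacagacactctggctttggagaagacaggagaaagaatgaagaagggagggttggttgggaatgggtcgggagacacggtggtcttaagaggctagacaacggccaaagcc
Each window was searched on both strands for 3 motifs, which were the homeodomain core TAATTA, the zinc finger core of GATA factors, spelled AGATAA, and the E-box of helix-loop-helix factors such as Tal1, spelled CANNTG. En1 held 2 matches to the E-box letters, both CACGTG, 175 and 158 bases before the start. The printed Tal1 window held 1 match to the GATA core, at 205 bases before the start. A second RefSeq window of Tal1, chr4:115057561-115057810, held no match to any of the 3 motifs, and neither did those of Shox2, Gata3 and Irx3. Over 32851 annotated promoters, TAATTA was present in 4.84%, AGATAA in 9.99% and the E-box in 66.2% of windows of 250 bases. GC content was 56% for En1, 55.6% for Shox2, 70% for Gata3 and 48.8% for the printed window of Tal1, against a median of 52.4% over all promoters.

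The first comparison asked in which neural tissues each factor stood apart. Every tissue was set against the mean of the other 23 neural tissues, so these comparisons share arrays. A gene passed when the limma adjusted p was under 0.05 and the log2 difference was at least 1. Of 120 pairs of member and tissue, 26 were higher and 31 lower, where 3.96% of all pairs of gene and tissue were higher and 3.36% lower. Since the members were chosen with earlier results of these data known, such shares, here and below, are a description and no test. Shox2 was higher in 7 tissues, Irx3 in 6, En1 in 5, Gata3 in 5 and En2 in 3. No cortical, hippocampal, striatal, amygdalar or olfactory tissue was among them, and 1 telencephalic tissue was, the bed nucleus of the stria terminalis, for Shox2.

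**Figure D1:**
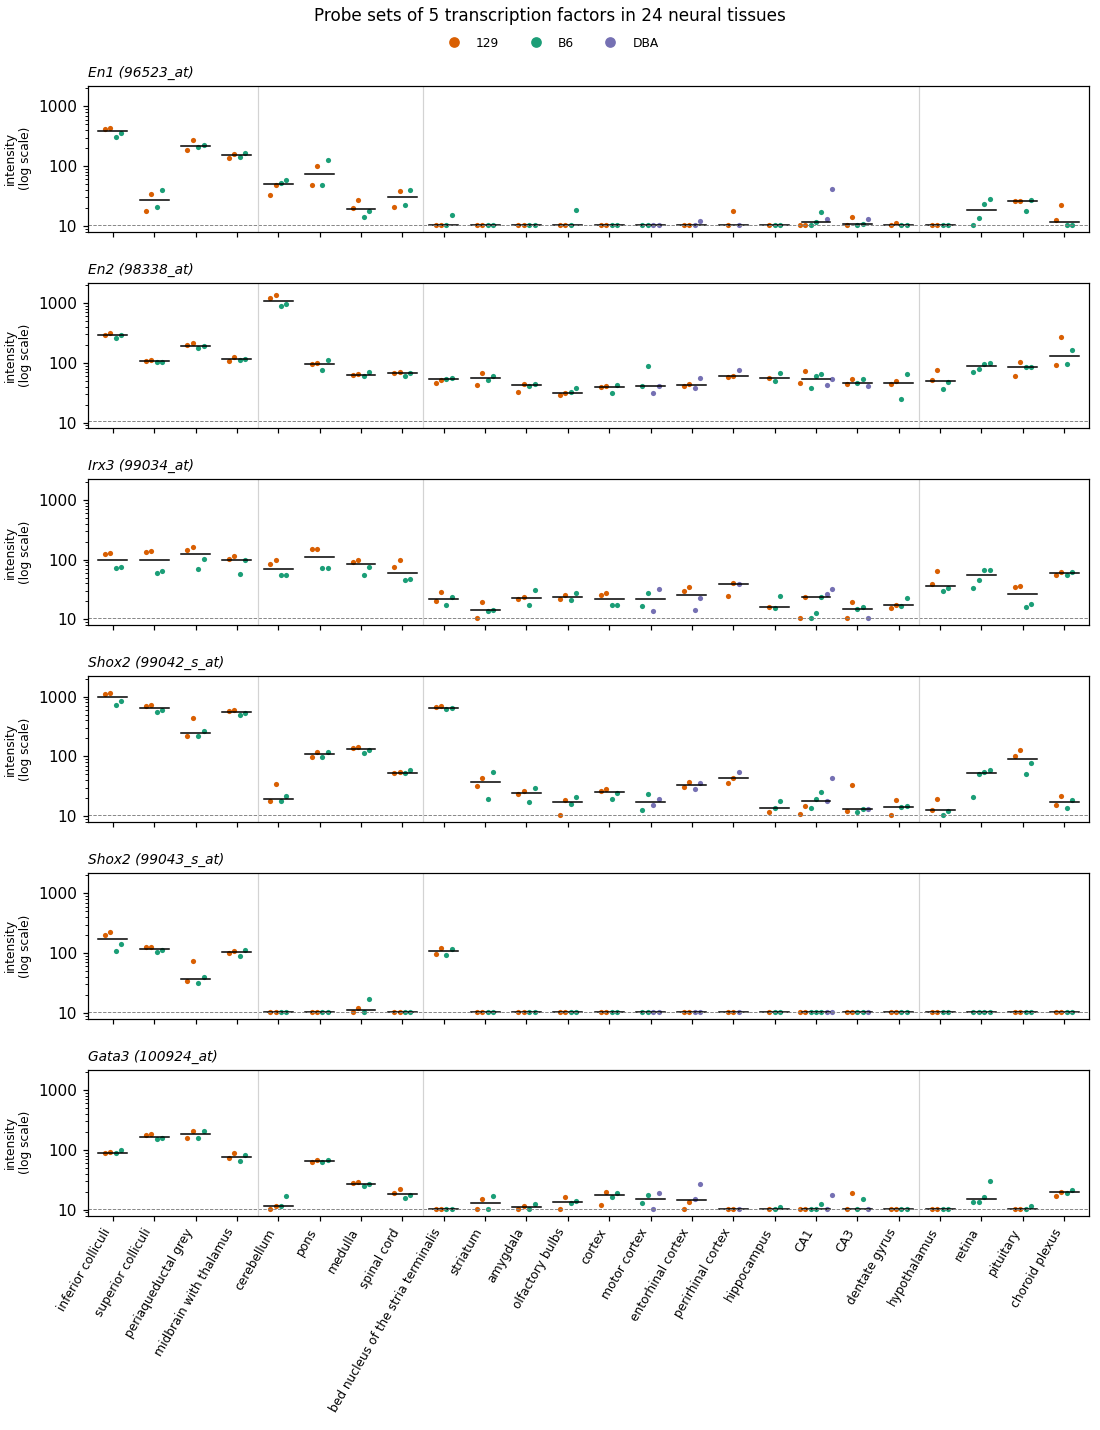
Intensity (log scale) of each probe set on each of 98 neural arrays, by tissue. Points are arrays coloured by strain, black lines are medians, values at or below the floor of 10.44 are drawn at the dashed line, and grey verticals separate midbrain, hindbrain with cord, telencephalon and other tissues. En1 and Shox2 by 99043_s_at stand above the floor mostly to the left, Gata3 is highest there, Shox2 by 99042_s_at is above the floor in nearly all tissues, En2 peaks at 878 to 1339 in cerebellum, and both Shox2 probe sets have a further high group in the bed nucleus of the stria terminalis.

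En1 was brightest in the inferior colliculi, the auditory part of the midbrain roof, with intensities of 422 and 435 in 129 and 309 and 363 in B6. The periaqueductal grey, around the midbrain aqueduct, had 272 and 185 in 129 and 223 and 204 in B6. Midbrain with thalamus had 162 and 138 in 129 and 167 and 141 in B6. These 3 tissues did not overlap in that order, nor did midbrain with thalamus overlap the next tissue, pons, which had 48 and 101 in 129 and 125 and 48.6 in B6. From pons downward the neighbours in the order overlapped: cerebellum held 32.6 to 58.4, spinal cord 20.4 to 40.04, superior colliculi 17.4 to 39.5 and medulla 14.0 to 27.2. In the telencephalon most arrays lay at or below the floor, including all 4 of cortex, striatum, amygdala and motor cortex, and the highest single value was 41.5 in a CA1 array of DBA. Against the other tissues, pons was higher by 1.85 ± 0.20 and cerebellum by 1.17 ± 0.20 on the log2 scale (SE, limma adjusted p = 8.58e-13 and 6.26e-07). Both calls were lost under a floor at the 40th percentile of all values, at 0.77 and 0.09. En1 was lower in 8 tissues, of which 7 lie in the telencephalon and 1 is the hypothalamus. The size of those 8 differences is set by the floor.

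En2 was measured above the floor in every neural array and was brightest in cerebellum, with 1339 and 1228 in 129 and 878 and 971 in B6 (1104 ± 215, SD, n = 4). The inferior colliculi followed, without overlap with cerebellum, at 315 and 295 in 129 and 256 and 290 in B6, and the periaqueductal grey at 215 and 199 in 129 and 189 and 179 in B6. Midbrain with thalamus ran from 109 to 124, the superior colliculi from 101 to 113, pons from 76.2 to 113 and medulla from 59.4 to 70.7. The olfactory bulbs were lowest, at 29.4 to 38.1. Cerebellum was higher than the other tissues by 3.98 ± 0.16, the inferior colliculi by 1.98 ± 0.16 and the periaqueductal grey by 1.39 ± 0.16 (limma adjusted p = 1.05e-36, 7.02e-18 and 2.27e-11). En2 was lower in olfactory bulbs by -1.31 ± 0.16 and in cortex by -1.06 ± 0.16, and the cortex call was lost without cortex B6 replicate 2, at -0.98.

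En2 also reached the level of midbrain tissues in choroid plexus, the secretory epithelium of the ventricles, with 272 and 92.5 in 129 and 167 and 96.0 in B6. The arrays were spread widely there, and choroid plexus did not pass the test, but did so without 129 replicate 2 (1.13), without B6 replicate 2 (1.09) or with quantile normalization (1.03). Without 129 replicate 1 the difference was 0.60. The summed intensity of 5 cerebellar markers on the same arrays, in the same order, was 2931, 1450, 2097 and 1458, against 12721 to 14721 on the cerebellum arrays. Among these markers Gabra6, a GABA receptor subunit of cerebellar granule cells, stood at 252, 44.1, 37.0 and 5.79, and Cbln1, a granule cell synaptic organizer, at 550, 85.6, 201 and 57.1. Zic1 was the largest part of each sum, at 1558, 998, 1325 and 1027, and Pcp2 stood at 425, 309, 450 and 355. Car8 stood at 146, 12.6, 83.3 and 13.3. The choroid plexus arrays with the higher En2 values were also those with the higher sums, and the part of cerebellar RNA in the En2 values was not tested.

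Irx3 was above the floor on every array of midbrain, hindbrain and cord. It was highest in the periaqueductal grey, with 160 and 145 in 129 and 104 and 69.4 in B6, and in pons, with 151 and 151 in 129 and 72.9 and 72.9 in B6. The superior colliculi had 138 and 136 in 129 and 63.4 and 59.4 in B6. Medians of the 8 midbrain, hindbrain and cord tissues fell in a narrow band of 60.6 to 125, and every pair of neighbours in that order overlapped. Choroid plexus (55.2 to 62.4) and retina (33.3 to 68.0) came next, and the other tissues had medians of 14.2 to 39.3. The periaqueductal grey was higher than the other tissues by 1.68 ± 0.21, pons by 1.56 ± 0.21, the inferior colliculi by 1.44 ± 0.21 and medulla by 1.13 ± 0.21 (limma adjusted p = 4.05e-10, 2.47e-09, 5.86e-08 and 7.03e-06). With the floor at the 40th percentile the calls in medulla (0.74), midbrain with thalamus (0.94), superior colliculi (0.96) and all the lower ones were lost. Irx3 was lower in CA1, CA3, dentate gyrus, whole hippocampus and striatum, by -1.51 (CA3) to -1.0 (whole hippocampus). The call in whole hippocampus was lost without any of 18 arrays, down to -0.75, and under 4 other settings, that in CA1 without CA1 129 replicate 1 (-0.88) or B6 replicate 2 (-0.96), and that in dentate gyrus without dentate gyrus 129 replicate 2 (-0.96).

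Shox2 was highest in the midbrain roof. Its probe set 99042_s_at had 1132 and 1115 in 129 and 831 and 717 in B6 in the inferior colliculi. The superior colliculi, the visual part of the midbrain roof, had 706 and 725 in 129 and 600 and 559 in B6, and midbrain with thalamus 593 and 570 in 129 and 495 and 535 in B6. The periaqueductal grey, with 221 and 432 in 129 and 216 and 267 in B6, lay below these without overlap and above medulla at 114 to 143. Pons held 96.9 to 120, pituitary 51.5 to 130 and spinal cord 52.8 to 60.3, while cerebellum, with 17.6 to 34.4, stood near hippocampal and cortical tissues. Medulla was higher than the other tissues by 1.35 ± 0.20 and pons by 1.05 ± 0.20 (limma adjusted p = 7.32e-08 and 1.48e-05), and the pons call was lost without pons B6 replicate 2, at 0.98. Both calls were lost under a floor at the 40th percentile, at 0.88 and 0.59. Hypothalamus was lowest of the 24, at 10.6 to 19.6, and differed by -2.08 ± 0.20 (limma adjusted p = 4.56e-14), or by -1.20 with the floor at the 40th percentile.

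The second Shox2 probe set, 99043_s_at, had a narrower profile. It had 225 and 201 in 129 and 109 and 141 in B6 in the inferior colliculi, and 125 and 129 in 129 and 104 and 113 in B6 in the superior colliculi. Midbrain with thalamus held 90.7 to 115 and the periaqueductal grey 31.1 to 73.8. The tissue labelled bed nucleus of the stria terminalis was also high. In every other neural tissue no array passed 16.9, and no body array passed 15.2. By median, the pair of probe sets ranked the same 5 tissues highest and in the same order. By mean, superior colliculi and the tissue of the stria terminalis changed places for 99042_s_at, at 647 and 653. The levels of medulla, pons, pituitary, cord and muscle were seen with 99042_s_at alone.

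In the tissue labelled bed nucleus of the stria terminalis, a limbic relay of the ventral telencephalon, Shox2 had 707 and 660 in 129 and 635 and 610 in B6 (653 ± 41.1, SD, n = 4). That is the level of the superior colliculi, and 99043_s_at held 92.0 to 122. The difference from the other tissues was 3.77 ± 0.20 (limma adjusted p = 1.95e-27). Thalamic markers were also high on these arrays: 4 of 4 tested were higher, namely Gbx2 by 2.39, Prkcd by 2.12, Tcf7l2 by 1.48 and Lef1 by 1.00, where 2.44% of genes were higher in this tissue. Tcf7l2, whose profile was the nearest to that of Shox2, had 360 to 513 in the inferior colliculi and 147 to 178 in this tissue. The summed thalamic list was 1546 to 2045 here, against 290 to 465 in amygdala and 365 to 578 in striatum. Of 5 telencephalic markers 3 were lower, Neurod2 by -2.29, Neurod6 by -1.43 and Nrgn by -1.16, where 1.3% of genes were lower. That list was drawn up for the telencephalon as a whole and not for its ventral part. What the low values say of this dissection was not tested. Isl1, a LIM homeodomain factor of ventral forebrain neurons, was higher by 1.85. En1 and Gata3 lay near or below the floor here, with no array over 14.9 and 7.61. The part of thalamic tissue in the Shox2 value was not tested.

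Gata3 was highest in the periaqueductal grey, with 158 and 205 in 129 and 157 and 208 in B6, and in the superior colliculi, with 186 and 177 in 129 and 153 and 159 in B6. These 2 tissues overlapped each other and no other neural tissue. The inferior colliculi had 90.8 and 89.7 in 129 and 89.6 and 100 in B6, midbrain with thalamus 65.6 to 88.2 and pons 63.3 to 68.9. Medulla followed pons without overlap, at 25.0 to 28.8, and the other tissues had medians of 3.80 to 19.5. Retina (13.4 to 30.8) and entorhinal cortex (6.29 to 27.2) overlapped medulla. The periaqueductal grey was higher than the other tissues by 3.27 ± 0.14, the superior colliculi by 3.16 ± 0.14, the inferior colliculi by 2.26 ± 0.14 and pons by 1.75 ± 0.14 (limma adjusted p = 6.20e-33, 6.43e-32, 3.08e-23 and 1.27e-17). With the floor at the 40th percentile the calls in pons (0.68) and midbrain with thalamus (0.91) were lost, and the superior and inferior colliculi differed by 2.09 and 1.19. The inferior colliculi, where En1 and En2 stood above the superior, thus held Gata3 below them. Cerebellum, where En2 was at its highest, had Gata3 at 7.51 to 16.7.

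Neighbouring tissues of the brainstem were then compared directly. Of 30 pairs of member and comparison, 6 were higher and 4 lower, where 1.72% of all pairs were higher and 1.43% lower. Several of the 6 comparisons share the arrays of pons, medulla or midbrain with thalamus. Shox2 was read by its brightest probe set unless stated.

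Inferior and superior colliculi differed in both engrailed genes. En1 averaged 382 ± 57.8 in the inferior and 27.9 ± 10.7 in the superior colliculi (SD, n = 4 each), a log2 difference of 3.85 ± 0.27 or 14.4-fold (limma adjusted p = 5.95e-20), and all arrays of the superior colliculi were above the floor. En2 averaged 289 ± 24.5 in the inferior and 106 ± 4.74 in the superior colliculi, a difference of 1.44 ± 0.22 (limma adjusted p = 1.18e-06). Over all genes 0.535% were higher and 0.723% lower. Shox2 differed by 0.53 ± 0.28 (limma adjusted p = 0.473), and Gata3, whose groups did not overlap, by -0.86 ± 0.20, under the size threshold (limma adjusted p = 0.00345). Irx3 differed by 0.08, with a 95% interval of -0.50 to 0.66. Of 12 tested neuron identity factors, Tcf7l2 was higher by 2.02 and Lhx9 by 1.91 and Lef1 was lower by -1.39. Of 8 tested GATA partners, Tal1 was lower by -1.25 ± 0.19 (limma adjusted p = 5.96e-07).

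The periaqueductal grey was set against midbrain with thalamus. Gata3 averaged 182 ± 28.3 in the periaqueductal grey and 77.3 ± 10.3 in midbrain with thalamus (SD, n = 4 each), without overlap, and was higher by 1.24 ± 0.20 (limma adjusted p = 2.45e-06). Shox2 averaged 284 ± 101 and 548 ± 42.5 in the same order and was lower by -1.01 ± 0.28 (limma adjusted p = 0.0063), but fell short of the size threshold without any of 4 arrays, at -0.87 to -0.996. By its other probe set, 99043_s_at, Shox2 was lower by -1.30 ± 0.14 (limma adjusted p = 1.76e-11). En2 differed by 0.76 ± 0.22 and En1 by 0.53 ± 0.27 and neither passed. Over all genes 2.09% were higher and 1.45% lower. Thalamic markers differed as the label has it: 3 of 4 were lower in the periaqueductal grey, Prkcd by -3.27, Gbx2 by -2.38 and Lef1 by -1.31. Of 23 listed genes of isthmus and midbrain patterning 17 are on the array and 8 were tested, and of these Pax6 was higher by 1.96 and Fgf18 by 1.48, while Gbx2 was lower. How far the thalamic share of the dissection lowers or raises a member was not tested. Between midbrain with thalamus and both colliculi 0 members passed by limma, 4 of 5 had an unadjusted p under 0.05, and 0.676% of genes were higher and 0.283% lower. Gata3 differed there by -0.70 ± 0.17 and En2 by -0.60 ± 0.19 (limma adjusted p = 0.00403 and 0.0311), both under the size threshold.

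Cerebellum against pons and medulla separated En2 from the rest. En2 was higher in cerebellum by 3.80 ± 0.19, or 14.0-fold (limma adjusted p = 3.48e-30), while Shox2 was lower by -2.43 ± 0.25 and Gata3 by -1.78 ± 0.17 (limma adjusted p = 3.38e-14 and 7.96e-15). The Gata3 value is bounded by the floor, which 1 of 4 cerebellum arrays reached, and the call was lost under a floor at the 40th percentile, at -0.50. By its other probe set, 99043_s_at, Shox2 differed by -0.11 and did not pass (limma adjusted p = 0.468). The cerebellum and pons arrays all lay at or below the floor by that probe set. En1 differed by 0.32 and Irx3 by -0.35 and neither passed. In this pair 5.91% of genes were higher and 5.75% lower. All 5 tested cerebellar markers were higher, among them Gabra6 by 6.29 and Car8 by 6.05.

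Pons and medulla were close to each other, with 4 of 6361 genes higher in pons (0.0629%) and 12 lower (0.189%). En1 and Gata3 were among the 4. En1 averaged 80.5 ± 38.4 in pons and 19.7 ± 5.59 in medulla (SD, n = 4 each) and was higher by 1.94 ± 0.27 (limma adjusted p = 3.27e-07). Gata3 averaged 65.9 ± 2.79 in pons and 27.2 ± 1.59 in medulla and was higher by 1.28 ± 0.20 (limma adjusted p = 6.07e-06). The groups did not overlap for either gene. With the floor at the 40th percentile the En1 difference was 1.16. With the floor at the 10th percentile, Gata3 kept its difference of 1.28 but had an adjusted p of 0.501. The others higher in pons were Pnoc, which encodes the nociceptin precursor, by 1.66 and Tnnt1, a troponin, by 1.61. Of 10 tested Hox genes 3 were lower in pons: Hoxa5 by -3.87, Hoxb5 by -3.16 and Hoxb6 by -2.21.

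Spinal cord against medulla changed 1 member. Shox2 averaged 55.1 ± 3.57 in cord and 131 ± 13.2 in medulla (SD, n = 4 each) and was lower by -1.25 ± 0.28 (limma adjusted p = 0.00297), where 1.04% of genes were higher and 0.173% lower in cord. By its other probe set, 99043_s_at, Shox2 differed by -0.23 and did not pass (limma adjusted p = 0.527). The cord arrays all lay at or below the floor by that probe set. The Hox list marked the cord side, with Hoxa7 higher by 3.90 and Hoxd8 by 2.47. Gata3 differed by -0.55 ± 0.20 (limma adjusted p = 0.132).

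**Figure D2:**
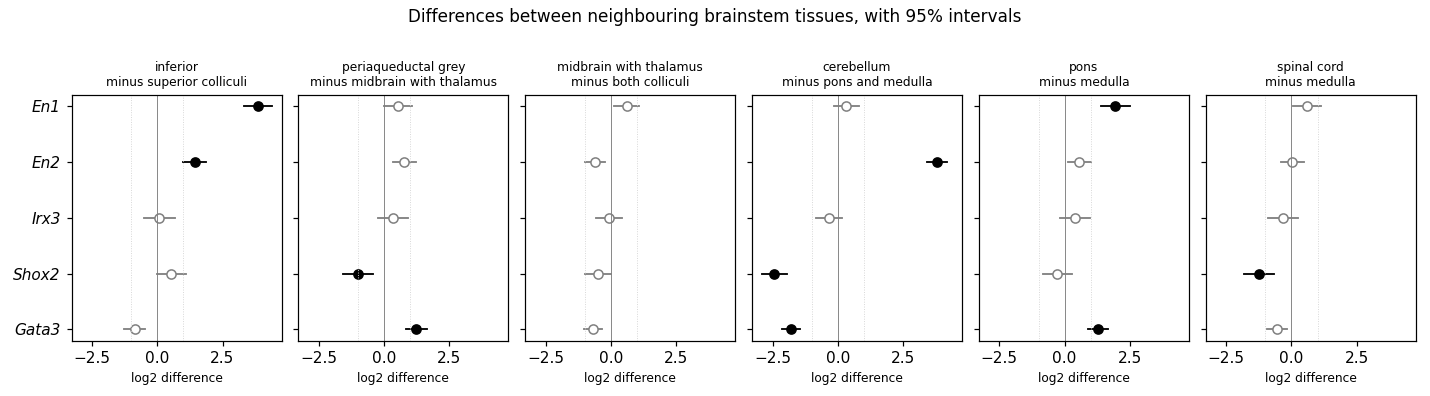
Log2 differences (x axes) of the 5 genes (rows) in 6 comparisons of neighbouring tissues, the first-named tissue minus the second. Bars are 95% intervals from limma, filled points passed the test, and open points did not. En1 separates the colliculi by 3.85 and En2 separates cerebellum from pons and medulla by 3.80.

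Divisions of the brain were compared on tissue means, with 4 midbrain tissues, 4 of hindbrain and cord, and the telencephalic tissues. The last include whole hippocampus beside CA1, CA3 and dentate gyrus, and whole cortex beside motor cortex, so these samples are not independent. Without whole hippocampus and whole cortex all 10 member calls below were kept. Of 15 pairs of member and comparison 10 were higher, where 1.84% of all pairs were higher and 2.1% lower. Each division enters 2 of the comparisons. Midbrain exceeded telencephalon for all 5: En1 by 3.63 ± 0.43, En2 by 1.76 ± 0.48, Irx3 by 2.28 ± 0.18, Shox2 by 4.30 ± 0.72 and Gata3 by 3.32 ± 0.31 (limma adjusted p = 2.88e-05, 0.0143, 1.66e-07, 0.000563 and 1.15e-06). Of all genes 1.94% were higher and 2.32% lower in this comparison. En2 lost this call without the inferior colliculi, at an adjusted p of 0.0691. The En1 and Gata3 values depend on the floor and were 2.14 and 1.88 with it at the 40th percentile.

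Between midbrain and hindbrain with cord, only Gata3 passed among the members when each was read by its brightest probe set. It was higher by 2.26 ± 0.37 (limma adjusted p = 0.00346) and was 1 of 13 genes higher (0.223% of genes). Tal1, the helix-loop-helix partner of GATA factors, was higher by 2.05 ± 0.27 and was the 1 of 8 tested GATA partners to pass. En1 differed by 1.86 ± 0.53 and Shox2 by 3.09 ± 0.88, both at an adjusted p of 0.071, and both passed with the floor at the 40th percentile. By its other probe set, 99043_s_at, Shox2 passed, higher by 3.13 ± 0.58 (limma adjusted p = 0.00713). Most hindbrain and cord arrays lay at or below the floor by that probe set. En1 also passed without cerebellum (1.97) or superior colliculi (2.65), En2 without cerebellum (1.14), and Shox2 without the bed nucleus of the stria terminalis (3.09). Hindbrain with cord against telencephalon had En1 higher by 1.77 ± 0.43 (limma adjusted p = 0.0043) with 4 members passing in all, where 3.35% of genes were higher. Shox2 differed by 1.21 ± 0.72 there (limma adjusted p = 0.211) and passed without the bed nucleus of the stria terminalis, at 1.62. The Gata3 call was lost without pons and the En2 call without cerebellum, and the En1 and Gata3 calls were lost under a floor at the 40th percentile, at 0.45 and 0.25.

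Likeness of profiles was measured as Pearson's r over the strain-adjusted log2 means of the 24 neural tissues, among 6360 other genes. The tissues share arrays' scaling and overlap in dissection, so r is given as a description. Tal1 was nearest to Gata3 (r = 0.92), followed by En1 (0.80), Irx3 (0.79), Arl2 (0.76) and Shox2 (0.74). Tal1 intensities were 68.0 to 98.5 in the superior colliculi, 53.5 to 64.8 in the periaqueductal grey, 25.6 to 39.7 in midbrain with thalamus, 25.0 to 50.8 in the inferior colliculi and 7.95 to 29.5 in pons, an order close to that of Gata3. The profile nearest to Shox2 was that of Tcf7l2 (r = 0.84), the Wnt effector of thalamic and midbrain neurons, with 360 to 513 in the inferior colliculi, 179 to 256 in midbrain with thalamus and 147 to 178 in the bed nucleus of the stria terminalis. In the superior colliculi, where Shox2 was among its highest, Tcf7l2 had 83.9 to 114. Dnajb2 (0.79), Zfhx3 (0.76), Adcy7 (0.75) and Gata3 followed.

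En2 was most like Uncx (r = 0.82), a homeodomain factor, and Ntn1 (0.79), the axon guidance cue netrin, followed by Ptpn22 (0.76), Crtam (0.74) and Gabra6 (0.74). Uncx had 160 to 202 in cerebellum and no more than 73.8 in any midbrain tissue. Irx3 was most like Fkbp4 (0.87), Hgsnat (0.85), Tmem41b (0.84), Pxk (0.83) and Ebf3 (0.83), whose r values lay close together. For En1 the nearest were Gata3, Irx3 (0.78), Tcf7l2 (0.71), Tal1 (0.71) and Ubxn1 (0.70). Among the members themselves r ran between 0.35, for En2 with Shox2, and 0.80, for En1 with Gata3, and the paralogs En1 and En2 stood at 0.69.

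**Figure D3:**
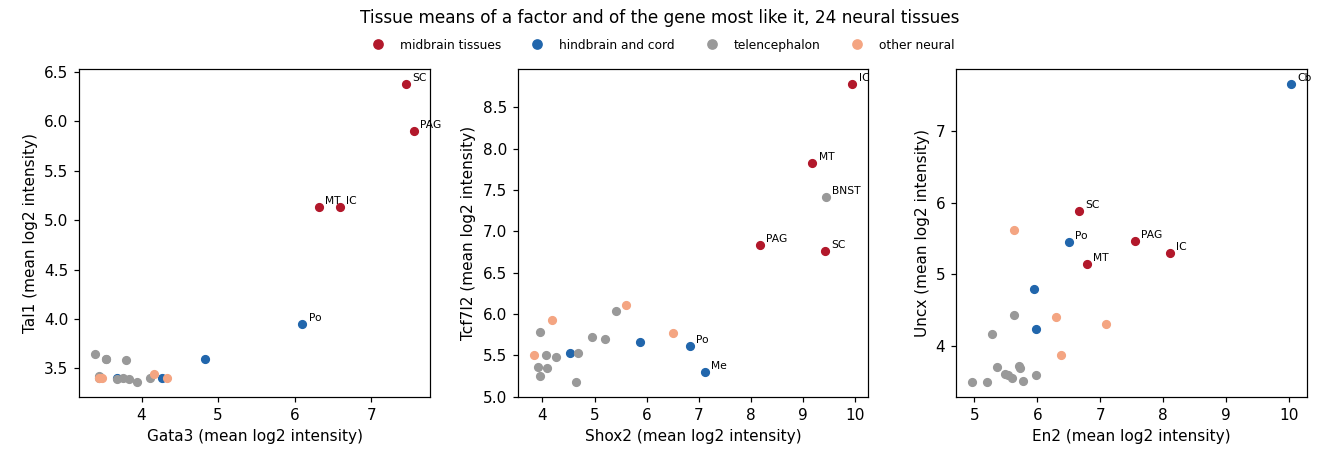
Mean log2 intensity of Gata3, Shox2 and En2 (x axes) against that of the gene most like each, Tal1, Tcf7l2 and Uncx (y axes), where a point is 1 of 24 neural tissues coloured by division. Labels give inferior colliculi (IC), superior colliculi (SC), periaqueductal grey (PAG), midbrain with thalamus (MT), pons (Po), medulla (Me), cerebellum (Cb) and bed nucleus of the stria terminalis (BNST). A few points lie far from a cluster of low tissues, namely midbrain tissues for Gata3, midbrain tissues and BNST for Shox2, and cerebellum for En2.

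Strain differences were examined over 80 arrays of 20 neural tissues, those with arrays of 129 and of B6. At an adjusted p of 0.05 and 1.5-fold 0 of 5 members passed by limma, 2 had an unadjusted p under 0.05, and 0.669% of genes were higher and 1.6% lower in 129. Irx3 came nearest, higher in 129 by 0.44 ± 0.08 or 1.35-fold, with a 95% interval of 0.27 to 0.60 (limma adjusted p = 2.35e-05). The other members differed by less than 0.2, with intervals of -0.15 to 0.16 for En1, -0.05 to 0.22 for En2, 0.02 to 0.34 for Shox2 and -0.11 to 0.09 for Gata3.

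The observed Irx3 difference varied between tissues, which is given as a description, since the F test below did not pass. Irx3 was also dimmer in most tissues outside midbrain, hindbrain and cord. In all 8 midbrain, hindbrain and cord tissues both 129 arrays lay above both B6 arrays, as they did for 1.06% of genes tested. Among the 12 other tissues the 129 mean was higher in 4, and the arrays did not overlap in 3 of these, pituitary, hypothalamus and cortex. In pons the 129 mean was 151 and the B6 mean 72.9, in the superior colliculi 137 and 61.4, and in spinal cord 87.0 and 45.7. Choroid plexus had 58.8 in 129 and 58.9 in B6, and amygdala 23.1 in 129 and 24.3 in B6. Pituitary had 35.3 in 129 and 17.1 in B6, hypothalamus 51.4 in 129 and 31.5 in B6, and cortex 26.6 in 129 and 17.6 in B6. On the log2 scale the differences in hypothalamus (0.67) and cortex (0.60) exceeded those in medulla (0.54) and midbrain with thalamus (0.53). Within single tissues the difference passed in superior colliculi, by 1.16 (limma adjusted p = 0.0398), and pituitary, by 1.05 (limma adjusted p = 0.0365), where 0.588% and 2.19% of genes were higher in 129. The F test of strain by tissue over 19 tissues and 77 arrays passed for 0 of 5 members by limma, of which 1 had an unadjusted p under 0.05, with an Irx3 F of 2.01 (limma adjusted p = 0.0967), where 20.7% of genes passed. It passed without either CA1 array of 129, which removes CA1 from the fit, with an F of 2.84 and an adjusted p of 0.0164. With the floor at the 40th percentile the F was 7.25 (limma adjusted p = 2.02e-06). That floor sets dim arrays to the same level. It thus shrinks both strain differences and spread in dim tissues, so this F cannot decide whether the difference depends on tissue.

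A division into midbrain, hindbrain and cord against other tissues was made after these values were seen, so its values are a description with no test. In the 32 arrays of the 8 midbrain, hindbrain and cord tissues, the log2 difference of Irx3, 129 minus B6, was 0.82 ± 0.08 (SE). Those arrays came from 13 sets of animals of 129 and 15 of B6, and with the animals as a random block the value was 0.82 ± 0.07. In the 48 arrays of the other 12 tissues it was 0.18 ± 0.11. The median ratio of Gapdh 3′ to 5′ signal, a sign of RNA quality, was 0.932 in 129 and 0.921 in B6, and with it as a covariate the Irx3 difference over all tissues was 0.44. Irx3 is read by 1 probe set, and whether its probes match both strains equally was not tested.

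**Figure D4:**
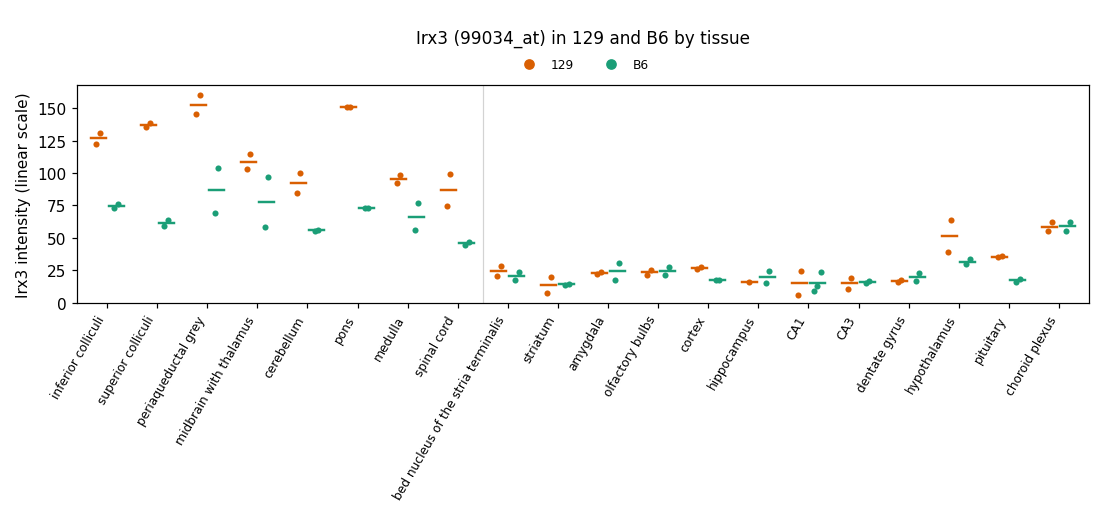
Irx3 intensity (linear scale) on each 129 and B6 array in the 20 neural tissues with both strains. Points are arrays, short lines are strain means, and the grey vertical separates midbrain, hindbrain and cord tissues from the others. To the left of it the 129 points lie above the B6 points in 8 of 8 tissues, and to the right of it in 3 of 12.

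In body tissues 4 of the 5 genes were tested, since En1 did not pass the filter on dim genes. It passed the filter without the 129 muscle array, and with no filter it was higher in muscle by 1.76 (limma adjusted p = 4.63e-09). Every body tissue was set against the other 9, with arrays in common, and of 40 pairs 6 were higher and 10 lower, where 13.2% of all pairs were higher and 13.8% lower. The share of members higher was thus near that of all genes. En1 had a signal in muscle, with 43.1 in B6, 60.1 in DBA, 67.5 in AJ and 69.7 in C3H but 7.94 in 129, and 14.8 to 31.8 in brown adipose tissue.

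Gata3 was highest in thymus, where it is required for T cells, with 434 in 129, 385 in B6, 422 in DBA, 293 in AJ and 402 in C3H. Thymus was higher than the other body tissues by 3.66 ± 0.33 (limma adjusted p = 6.19e-13), and 9 of 10 T cell markers were higher there. White adipose tissue had 89.9 in 129, 311 in B6, 190 in DBA, 17.5 in AJ and 315 in C3H, and was higher by 1.84 ± 0.33 (limma adjusted p = 8.69e-06). The AJ array lay far below the other 4, and without it the difference was 2.51. Of the 10 T cell markers 8 were lower in white adipose tissue, with a summed intensity of 130 to 176, against 9621 to 11448 in thymus. Cd3e, a chain of the T cell receptor complex, was below 0 on all 5 arrays. Cd4 (35.35 to 58.81), Rag1 (23.59 to 51.58) and Cd247 (17.38 to 31.22) were above the floor on all 5. The other markers lay below the floor on some or all arrays. The part of T cells in the Gata3 value of white adipose tissue was not tested. Of 9 GATA partners Gata2 was higher in white adipose tissue by 1.75 and Lmo4 by 1.604. Adrenal had 100 in 129, 184 in B6, 81.1 in DBA, 42.2 in AJ and 48.5 in C3H and was higher by 1.12 ± 0.33 (limma adjusted p = 0.00486), a call lost without B6, at 0.92, and with the floor at the 40th percentile, at 0.47. Gata3 was lower in liver, brown adipose tissue, muscle and heart, by -1.44 to -1.95 on the log2 scale, values that the floor bounds.

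Irx3 was highest in kidney and heart. Kidney had 298 in 129, 150 in B6, 375 in DBA, 95.5 in AJ and 300 in C3H, and heart 229 in 129, 183 in B6, 259 in DBA, 151 in AJ and 307 in C3H. Heart was higher than the other body tissues by 2.59 ± 0.21 and kidney by 2.57 ± 0.21 (limma adjusted p = 4.87e-14 and 5.37e-14). Both exceeded every neural array of Irx3 in 129, DBA and C3H, as the highest neural value was 160. Muscle held 29.4 to 109 and did not pass. Irx3 was lower in spleen, testes, liver and thymus, and the liver and thymus calls, at -1.02 and -1.01, were lost on leaving out single arrays. All 4 were lost under a floor at the 40th percentile.

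Over the 5 strains in body tissues, Irx3 was the 1 member of 4 to pass an F test (F = 6.32, limma adjusted p = 0.00868), where 13.5% of genes passed. As means over the 10 tissues, relative to the mean of the 5 strains, Irx3 stood at 0.19 in 129, -0.19 in B6, 0.41 in DBA, -0.51 in AJ and 0.10 in C3H on the log2 scale. AJ was the lowest strain in 5 tissues and the highest in none, and DBA was the highest in 5 and the lowest in none. Strain 129 exceeded B6 in 8 of 10 body tissues, by 0.37 ± 0.69 on average (SD, n = 10 tissues), with differences from -1.12 to 1.12. This pair was not tested on its own.

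Shox2 was highest in muscle, with 80.5 in 129, 106 in B6, 76.9 in DBA, 89.2 in AJ and 97.6 in C3H by 99042_s_at, without overlap with any other body tissue. Muscle was higher by 2.10 ± 0.17 (limma adjusted p = 1.63e-14), while 99043_s_at stayed at or below the floor in 4 of 5 muscle arrays. Liver was lower by -1.09 ± 0.17, a call lost under quantile normalization and, at -0.24, under a floor at the 40th percentile. The muscle value was 1.37 under that floor. En2 lay between 14.1 and 114 in body tissues, and its 1 call was spleen, lower by -1.18 ± 0.23 (limma adjusted p = 2.00e-05) at 14.1 to 25.1, a call lost under a floor at the 40th percentile.

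**Figure D5:**
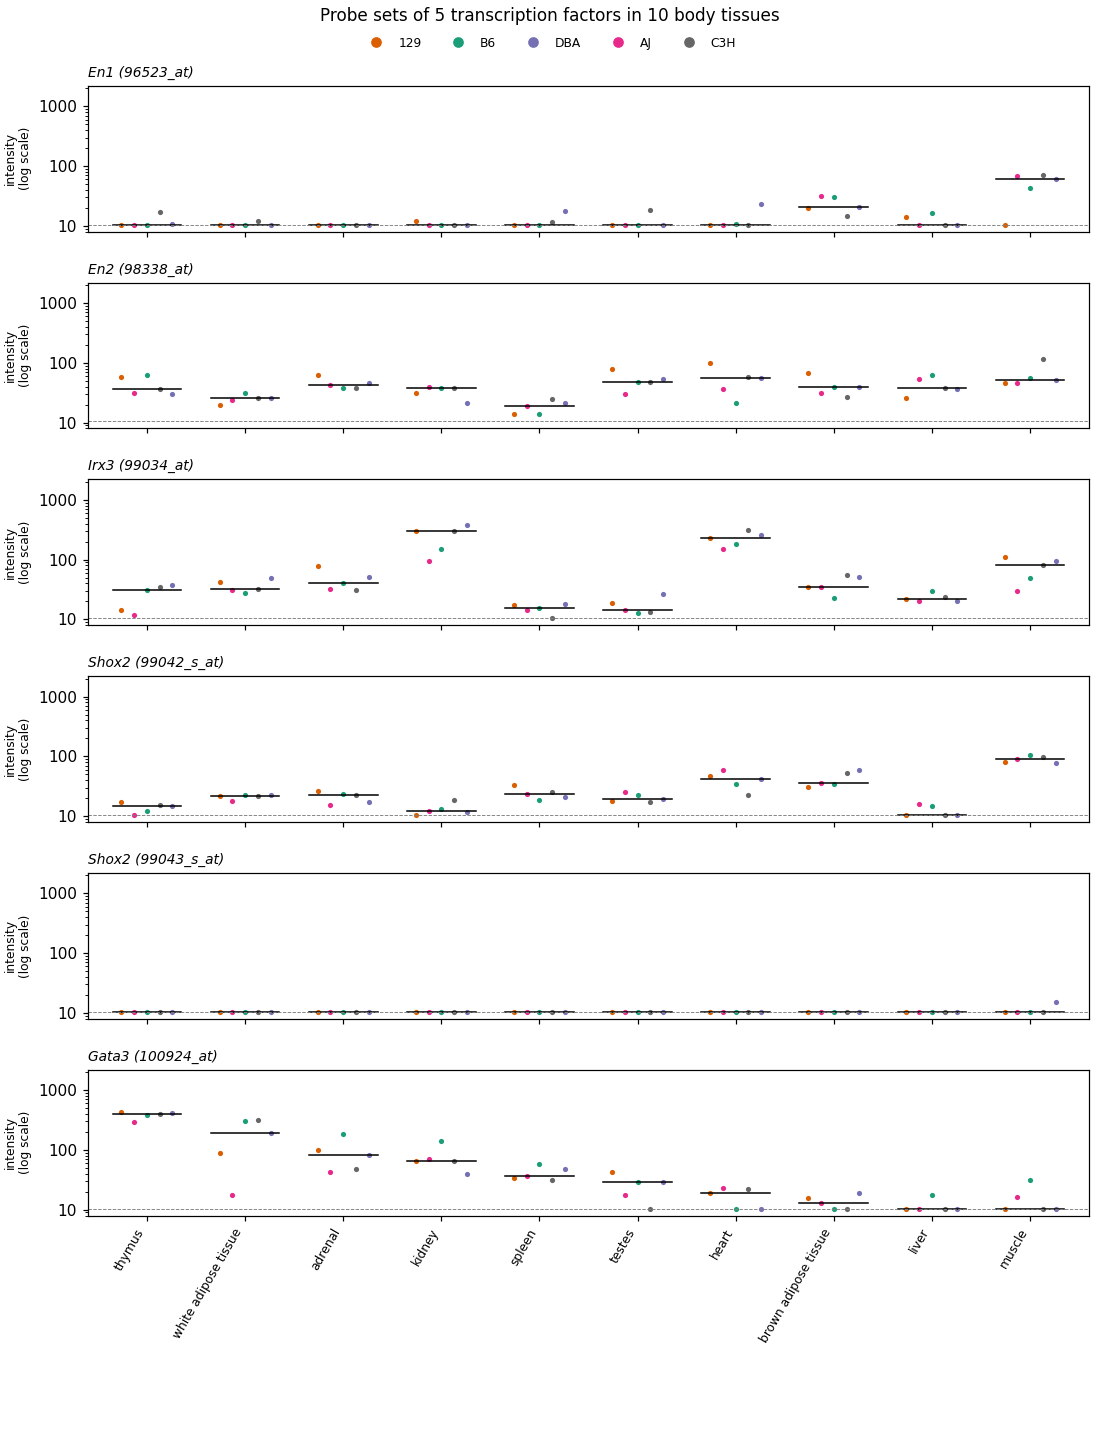
Intensity (log scale) of each probe set on each of 50 body arrays, by tissue, with points coloured by strain, medians as black lines and the floor of 10.44 as a dashed line. Gata3 is highest in thymus at 293 to 434 and spreads from 17.5 to 315 in white adipose tissue, Irx3 is highest in kidney and heart, and Shox2 by 99042_s_at is highest in muscle.

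Neural and body tissues were last compared on tissue means, 24 against 10. By limma 0 of 5 members passed and 2 had an unadjusted p under 0.05, where 14.4% of genes were higher and 14% lower in neural tissue. En2 differed by 0.95 ± 0.36 (limma adjusted p = 0.0237), under the size threshold, Shox2 by 1.19 ± 0.64 (limma adjusted p = 0.109), En1 by 0.76 ± 0.49 (limma adjusted p = 0.183), Irx3 by -0.28 ± 0.42 (limma adjusted p = 0.576) and Gata3 by -1.13 ± 0.51 (limma adjusted p = 0.0612). En2 passed without muscle (1.02) or olfactory bulbs (1.00), and Gata3 passed as lower without any of 9 tissues, at -1.20 to -1.32. The other members did not pass without any single tissue.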

How the data were processed

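Total RNA of adult mouse tissues was measured on one-colour Affymetrix arrays. The deposited values are intensities on a linear scale, 1 per probe set and array, of which 5.97% lie below 0. The software and scaling that the authors used are not stated in the labels. Values below 10.44, the 20th percentile, were set to it and log2 was taken, with no further scaling. Probe sets with several symbols or none (396 and 1193 of 12488) and 66 controls were left out, and the brightest probe set stood for each of 8251 genes. A gene was tested where its strain-adjusted mean passed 5.73, the median log2 value, in at least 1 tissue.

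Models of tissue, strain and strain by tissue used limma 3.58.1 under R 4.3.3 (lmFit, eBayes with trend), with p-values adjusted by the Benjamini-Hochberg method within each comparison and tested on simulated data. Comparisons of divisions used tissue means as samples. The text names all members, for each member the 5 genes of highest r, and up to 4 genes per list and comparison with the largest called differences. A few more genes (Cbln1, Zic1, Pcp2, Isl1, Cd3e, Cd4, Rag1, Cd247, Pnoc and Tnnt1) were named after their values were seen. Titles name 1 animal or a pool for each array and show animals shared between tissues, so the animals were tried as a random block, with a consensus correlation of 0.143 in neural tissues. Arrays shared a block only where the same set of animals was named. Sets whose animal numbers overlap in part counted as unrelated. Other floors, quantile normalization, no filter, every probe set, the identical arrays kept and each array or tissue left out were also tried. Members and lists were chosen with earlier results of these data known.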

Additional observations from a re-analysis of the deposited data

Results flagged for a closer look

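In muscle, En2 on the C3H array stood at an intensity of 114.2, with the nearest of the other 4 arrays at 55.13 and the lowest at 45.24. Its gap to the nearest array was 0.857 of the range of the 5. In the inferior colliculi, Gata3 on B6 replicate 2 stood at 100.3, with the nearest of the other 3 arrays at 90.84 and the lowest at 89.6, a gap of 0.884 of the range. The C3H muscle array is far from the others, while the Gata3 value is close to the others, which lie together. Of 76 groups of arrays examined these 2 were found, fewer than the 1 in 20 that chance gives.

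The strain difference of Irx3, 129 minus B6, was larger in the midbrain, hindbrain and cord tissues than in the other tissues by 0.6398 on the log2 scale. The tissues were divided this way after the values were seen, so this is a description that no test supports. The F test of strain by tissue did not pass (limma adjusted p = 0.0967).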

How the results depend on the processing

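The floor mattered most, since many member values lie close to it. With the floor at the 40th percentile of all values, the pairs of member and neural tissue that passed numbered 31 instead of 57. Those of member and body tissue numbered 5 instead of 16. In the test of strain by tissue 1 member (Irx3) instead of 0 passed, but that floor itself shrinks strain differences in dim tissues. Of 94 called member results 41 were lost under this floor and 53 kept their call. The floor at the 10th percentile lost 2, quantile normalization 5, the identical arrays kept 1 and no filter 0. Every probe set fitted alone also lost 0, but only the brightest probe set of each gene was counted there. By 99043_s_at, the other Shox2 probe set, cerebellum against pons and medulla (-0.11) and spinal cord against medulla (-0.23) did not pass. With the tissues of midbrain, hindbrain and cord alone, a choice made after seeing the data, 1 member (Irx3) instead of 0 passed between strains. With each gene read by its brightest probe set, none of the member results changed direction under these settings. For Shox2 against the other neural tissues, the brightest probe set gave 1.35 in medulla and 1.05 in pons. There 99043_s_at gave -0.47 and -0.71, both under the size threshold. By 99043_s_at all pons arrays lay at or below the floor.

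With each named set of animals as a random replicate block, 57 member calls in neural tissues, 10 between neighbouring tissues, 16 in body tissues and 0 between strains were made, so no count of member calls moved. Animals shared by sets that overlap in part were not modelled. Without single arrays, the member calls ranged from 55 to 59 in neural tissues, 9 to 10 between neighbours, 15 to 18 in body tissues (all genes 17938 to 18120), 0 to 0 between strains and 1 to 1 between strains in body tissues. Without single tissues they ranged from 9 to 12 between divisions and 0 to 2 between neural and body tissues. Strain by tissue gave 0 to 1 members, and 395 to 1645 of all genes against 1267, the lowest without choroid plexus 129 replicate 1 and the highest without CA3 129 replicate 1.

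With 2 arrays per strain and tissue, the number of arrays limits the precision, and levels at or below the floor have no order.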

Other observations

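Other factors also separated midbrain from telencephalon on tissue means. Of 11 tested genes on the list of neuron identity factors 5 were higher in midbrain, among them Mab21l2 by 1.98, Tcf7l2 by 1.86, Nkx6-2 by 1.67 and Nkx2-2 by 1.12 on the log2 scale. Another 2 were lower, Nr4a2 by -2.25 and Egr2 by -1.75, where 1.94% of all genes were higher and 2.32% lower. Which cells carry these genes in the adult tissues was not tested. In white adipose tissue, where Gata3 was also higher, 4 of 9 tested Hox genes passed, all as higher: Hoxc8 by 2.70, Hoxc6 by 1.83, Hoxb6 by 1.47 and Hoxd8 by 1.35, where 11.5% of all genes were higher.

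On the pair of identical columns, labelled perirhinal cortex of DBA and hippocampus of 129, Shox2 had 40.5 by 99042_s_at and Irx3 34.1. The other perirhinal arrays had 35.8 to 54.7 for Shox2 and 24.2 to 40.9 for Irx3, and the other hippocampus arrays 11.7 to 17.9 for Shox2 and 15.4 to 24.5 for Irx3. Which label the values belong to was not tested.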
